A study of Mus musculus with 12 samples.

Results

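The 10 genes described here are classic antioxidant targets of the transcription factor NRF2, namely *Txnrd1*, *Gclm*, *Gclc*, *Hmox1*, *Nqo1*, *Srxn1*, *Slc7a11*, *Gsr*, *Prdx1* and *G6pdx*. They were chosen by symbol from the 16971 genes of the authors' table, with their group means already known, so the differences between groups are described and not tested. The study sorted GFP(+) cells from the nonparenchymal fraction of livers of adult *Prom1CreERT2-nLacZ/+;Rosa26Lsl-GFP/+* mice, and sequenced their mRNA. The *Prom1* line was on a C57BL/6N and the *Rosa26* line on a C57BL/6J background, and the share of each substrain in a mouse is not given. All mice received tamoxifen 7 days before surgery. Cre driven from the *Prom1* locus then removes a stop cassette, so that cells expressing *Prom1* at that time, and their progeny, carry GFP. The labels give 3 libraries of day 0, which they call sham and the study's text describes as before bile duct ligation (BDL), with 3 of BDL day 3 and 6 of BDL day 14, called day 3 and day 14 here. The deposited means rest on 3, 3 and 4 of them.

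NRF2, encoded by *Nfe2l2*, is held in the cytoplasm by KEAP1, which presents it to a CUL3 ubiquitin ligase for degradation. Oxidants and electrophiles modify KEAP1, and NRF2 then enters the nucleus, pairs with a small MAF protein and binds antioxidant response elements (AREs) near its targets. The targets make and reduce glutathione and thioredoxin, break down heme, reduce quinones and supply NADPH. BDL blocks the flow of bile, and retained bile acids and inflammation are known to place liver cells under oxidative stress.

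ARE letters were looked for in RefSeq promoter windows of GRCm38.p6, each 300 bases long with 250 bases before the start site. Windows were found for 7 of the 10 genes, all but *Gclc*, *Hmox1* and *Gsr*, 9 windows in all because *Txnrd1* has 3. The core TGACNNNGC, searched on both strands, was in 5 of the 9 windows (55.6%) and in 4071 of 32851 windows of all genes (12.4%). In the other gene lists described below it was in 0% to 25% of windows, with 24.1% for other NRF2 targets. The 10 genes were chosen as known NRF2 targets, so these shares describe them and support nothing further. The stricter form TGANTCAGC, whose matches overlap those of the core where the fourth base is C, was in 2 of the 9 (22.2%), against 1.19% of all windows. The 150 bases before the start site are printed for the 5 genes with a match, since the ARE is the element that NRF2 binds, and capitals mark the matches. Start sites are those of RefSeq and can differ from the gene spans given below. The stretches of *Txnrd1* and *G6pdx* lie wholly inside those spans, and those of *Prdx1* and *Srxn1* partly. A core on the opposite strand reads as its reverse complement.
Txnrd1 (chr10:82859056-82859205, plus strand): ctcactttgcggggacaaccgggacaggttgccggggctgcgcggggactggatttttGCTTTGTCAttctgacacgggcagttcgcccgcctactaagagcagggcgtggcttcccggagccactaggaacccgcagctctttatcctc
Srxn1 (chr2:152105374-152105523, plus strand): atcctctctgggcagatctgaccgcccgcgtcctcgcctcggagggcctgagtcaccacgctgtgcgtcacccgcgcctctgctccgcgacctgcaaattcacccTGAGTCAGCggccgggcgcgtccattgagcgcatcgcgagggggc
Prdx1 (chr4:116685449-116685598, plus strand): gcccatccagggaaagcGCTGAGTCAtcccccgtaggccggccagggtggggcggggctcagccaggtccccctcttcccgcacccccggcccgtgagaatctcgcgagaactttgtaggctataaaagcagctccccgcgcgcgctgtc
Gclm (chr3:122245407-122245556, plus strand): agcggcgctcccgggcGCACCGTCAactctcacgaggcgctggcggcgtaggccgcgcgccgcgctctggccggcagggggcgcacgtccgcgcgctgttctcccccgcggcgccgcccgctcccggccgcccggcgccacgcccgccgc
G6pdx (chrX:74428881-74429030, minus strand): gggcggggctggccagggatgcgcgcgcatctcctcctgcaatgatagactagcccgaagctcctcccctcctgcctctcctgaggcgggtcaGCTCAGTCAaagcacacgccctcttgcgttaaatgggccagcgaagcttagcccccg

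The *Gclm* core (TGACGGTGC on the opposite strand) begins 134 bases before the start site and that of *Prdx1* (TGACTCAGC, opposite strand) 133 bases before it. In *Prdx1* the same letters meet the stricter form. The *Txnrd1* core (TGACAAAGC, opposite strand) lies 92 bases before the start of the second of its 3 windows, and that of *G6pdx* (TGACTGAGC, opposite strand) lies 57 bases before. *Srxn1* has the stricter form TGAGTCAGC on its own strand 45 bases before its start, and a core match (TGACCTAGC, opposite strand) 28 bases after it, outside the printed stretch. The windows of *Nqo1* and *Slc7a11* and the other 2 of *Txnrd1* hold neither form. A match describes letters in this window and does not show a binding site.

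The table gives, for each gene, 1 mean per group of upper quartile normalized counts, the geometric mean over all 10 libraries and the value of the highest library, unnamed. It has no value for a named library, so values per sample and an SD per group could not be given, and the depth of the libraries is unknown. The p-values that the authors deposited were not used, and no test was made here because the genes were chosen with their means known. What the table does allow is a within-group spread pooled over the 3 groups, as a coefficient of variation (CV), and limits within which every library of a group must lie. From that CV came the standard errors (SE) of the log2 ratios given here, under the assumption that the groups share 1 relative spread. The CV was 13.4% for *Gsr*, 15.1% for *Gclm* and 17.0% for *Txnrd1*, all under the median of 27.7% over 4684 genes with means above 20. It was 79.0% for *Nqo1* and 131% for *Slc7a11*, and at such spreads the SE is only rough.

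Macrophage markers were high in the sorted cells, and most markers of the labelled biliary lineage were low. The 7 cholangiocyte markers summed to 517 normalized counts at day 0, 201 at day 3 and 828 at day 14, of which *Spp1*, which macrophages are also known to express, made up 459, 175 and 792. Mean normalized counts of *Prom1* itself were 6.66 at day 0, 0.956 at day 3 and 1.76 at day 14, and those of the biliary keratin *Krt19* were 21.5, 12.7 and 14.3. The 8 macrophage markers summed to 7168, 13560 and 17280 normalized counts, of which *Lyz2* made up 2280, 4560 and 11200. Of the 8, 7 were more than 1.5-fold higher at day 3 than at day 0, beside 19.2% of the 12889 genes with summed normalized counts of at least 10. From day 3 to day 14, 4 of the 8 were lower by that fold and 3 higher, beside 19.6% and 21.2% of those 12889 genes. The 4 Kupffer cell markers summed to 6592, 13430 and 587. Erythroid markers summed to 47420, 4829 and 2948, hepatocyte markers to 3174, 875 and 354, and mesenchymal markers to 617, 14.6 and 63.9. These marker sums thus differed between the groups, and their part in the values of the 10 genes was not tested. In bulk RNA, fewer cells of a type and less RNA per cell cannot be told apart.

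At day 3, 8 of the 10 genes had a mean more than 1.5-fold above day 0, 1 was lower (*Nqo1*) and 1 was past the fold in neither direction (*Slc7a11*). Among the 12889 genes with summed normalized counts of at least 10, 19.2% were higher by that fold and 29.2% lower. The median log2 ratio was 1.05 over the 10 genes and -0.02 over all 12889. Against day 0, 5 genes were higher by the fold at day 14 (*Txnrd1*, *Gsr*, *Srxn1*, *Nqo1* and *Slc7a11*) and none lower, beside 21.2% and 28.7% of all genes, with a median log2 ratio of 0.60. With the highest day 14 library of each gene at its limit and left out, 3 genes were higher, 0 lower, and the median was -0.030. By the maximum alone, 2 were higher and 2 lower, with a median of -0.20. The 2 lower genes, *Txnrd1* and *Hmox1*, then have a day 14 library above what the geometric mean allows. From day 3 to day 14, 7 genes were lower and 2 higher, beside 19.6% and 21.2% of all genes, with a median of -0.76. The comparisons share libraries and also guided the choice of genes, so these shares describe the group and support nothing further.

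A single shape held for 8 of the 10 genes, with the lowest mean at day 0, an intermediate one at day 14 and the highest at day 3. This order was found in 2102 of the 12889 genes (16.3%). It is an order of means, and among the 8 genes day 14 stood above day 0 by more than 2 SE only for *Txnrd1* and *Gsr*. *Nqo1* and *Slc7a11* had their lowest means at day 3 and their highest at day 14. Summed, the 10 genes had 1393 normalized counts at day 0, 5044 at day 3 and 1950 at day 14, which is 0.151%, 0.598% and 0.265% of all normalized counts of each group. *Hmox1* was the largest part of the sum in every group.

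**Figure D1:**
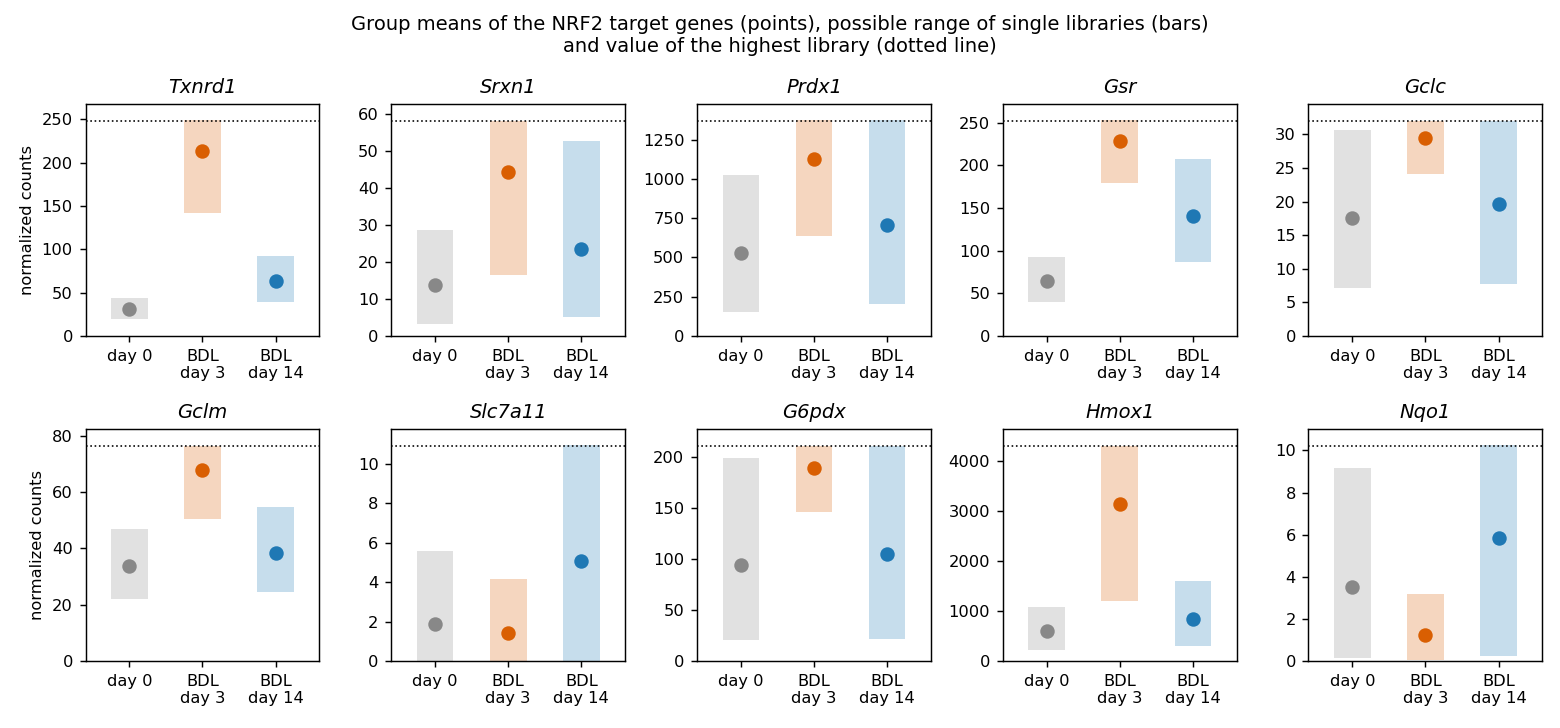
Mean normalized counts of each of the 10 genes (vertical axis, linear from 0) at day 0 (n = 3 libraries), day 3 (n = 3) and day 14 (n = 4). Points are the authors' group means, bars are the range within which every library of the group must lie given the group means, the geometric mean and the highest library (dotted line), and they are not errors. The bars of day 0 and day 3 are apart for *Txnrd1*, *Gsr*, *Gclm* and *Hmox1*.

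The thioredoxin arm was led by *Txnrd1* (chr10:82833951-82897712 on GRCm38, the span of the whole gene as for the genes that follow, plus strand), which encodes the cytosolic thioredoxin reductase that passes electrons from NADPH to thioredoxin. Its mean normalized counts were 31.2 at day 0, 213 at day 3 and 63.0 at day 14. No day 0 library can have been above 44.4 and no day 3 library below 142, so these groups did not overlap. The log2 ratio was 2.77 ± 0.20 (SE, n = 3 and 3), a 6.83-fold difference, and 35 of the 12889 genes had a larger ratio. The day 14 mean was still 2.02-fold that of day 0 (log2 ratio 1.01 ± 0.19), although the limits of day 14 libraries, 38.9 to 92.2, overlapped those of day 0. Day 14 lay below day 3 by a log2 ratio of -1.76 ± 0.19, and these groups did not overlap either. The mitochondrial reductase *Txnrd2* had means of 16.0, 12.6 and 7.64 and the third reductase, *Txnrd3*, had 3.15, 7.41 and 4.28.

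*Srxn1* (chr2:152105516-152111376, plus strand) encodes sulfiredoxin, which repairs overoxidized peroxiredoxins. Its means were 13.9, 44.3 and 23.5 normalized counts at day 0, day 3 and day 14, with the highest library, at 58.2, in the day 3 group. The day 3 mean was 3.19-fold that of day 0 (log2 ratio 1.67 ± 0.55). The day 14 ratio, 0.76 ± 0.51, was within 2 SE, and it reached -0.020 if the highest day 14 library was taken as high as the table allows and left out. *Prdx1* (chr4:116685544-116700822, plus strand), an abundant cytosolic peroxiredoxin that removes hydrogen peroxide with electrons from thioredoxin, had means of 526, 1130 and 709. Its log2 ratio to day 0 was 1.10 ± 0.48 at day 3 and 0.43 ± 0.45 at day 14. The limits of single libraries overlapped between all groups for both genes.

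Of the 13 other thioredoxin and peroxiredoxin genes fixed in a list, 3 were higher by 1.5-fold at day 3 (*Txnrd3*, *Prdx5* and *Sesn2*), 0 were lower and 10 were neither. For this list and those that follow, the shares of all genes past the fold were 19.2% higher and 29.2% lower at day 3. At day 14 these shares were 21.2% and 28.7%. *Prdx5*, a peroxiredoxin of mitochondria and peroxisomes, had means of 370, 590 and 354. *Sesn2*, a stress-induced sestrin, had 12.5, 19.9 and 6.91, and its relative *Sesn1* had 52.3, 48.5 and 53.3. At day 14 only *Glrx3*, a glutaredoxin that carries iron-sulfur clusters, was higher by the fold (46.4 at day 0, 82.7 at day 14), while *Txnrd2* and *Sesn2* were lower. The median log2 ratio of the list was 0.37 at day 3 and 0.03 at day 14.

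In the glutathione arm, *Gsr* (chr8:33652523-33698163, plus strand), glutathione reductase, which regenerates glutathione from its oxidized form, had the largest share of its day 3 difference left at day 14 among the 8 genes higher at day 3. Mean normalized counts were 64.5 at day 0, 228 at day 3 and 141 at day 14. Day 0 libraries were at most 92.1 and day 3 libraries at least 179. The log2 ratio was 1.82 ± 0.16 (SE, n = 3 and 3) at day 3 and 1.13 ± 0.15 (n = 4 and 3) at day 14, so that 61.9% of the day 3 value was present at day 14. That share was 45.3% for *Srxn1*, 39.0% for *Prdx1* and 36.6% for *Txnrd1*, and between 15.5% and 21.8% for *Gclc*, *Hmox1*, *Gclm* and *G6pdx*. The limits of day 14, 86.5 to 207, overlapped those of both other groups.

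Glutamate cysteine ligase, which makes the first bond of glutathione and sets its rate of synthesis, has a catalytic subunit, *Gclc*, and a modifier subunit, *Gclm*. *Gclm* (chr3:122245557-122270732, plus strand) had means of 33.9, 67.7 and 38.4 at day 0, day 3 and day 14. Day 0 libraries reached at most 47.1 and day 3 libraries at least 50.6, a narrow gap. The log2 ratio to day 0 was 1.00 ± 0.18 at day 3 and 0.18 ± 0.17 at day 14. Exons of *Gclm* overlap those of the pseudogene *Gm6061*, whose means were 0.432, 1.77 and 0.425. *Gclc* (chr9:77754535-77794485, plus strand) had means of 17.5, 29.4 and 19.6. Its log2 ratio to day 0 was 0.75 ± 0.36 at day 3 and 0.16 ± 0.34 at day 14, within 1 SE of that of the modifier subunit, and its libraries could overlap between all groups. Between day 3 and day 14 it stood exactly 1.5-fold lower and was therefore not counted as past the fold.

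*Slc7a11* (chr3:49892526-50443614, minus strand), the cystine transporter of system xc- that brings in the cysteine for glutathione, had low means throughout. Its means were 1.90, 1.42 and 5.08 normalized counts, and its highest library, at 10.9, was a day 14 library. Neither log2 ratio to day 0, -0.42 ± 1.55 at day 3 and 1.42 ± 1.45 at day 14, reached 1 SE. With the highest day 0 library at its limit and left out, the day 3 ratio turned to 4.76. Its heavy-chain partner *Slc3a2*, from the list of other glutathione genes and chosen after its values were seen, had 178, 303 and 196.

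Of the 13 other glutathione genes, 11 passed the minimum, of which 4 were higher by the fold at day 3, 1 was lower and 6 were neither. *Gsto1*, an omega-class glutathione transferase, had the narrowest spread of the genes named here, with a CV of 6.63%. Its means were 74.7, 215 and 149, and the libraries of neither BDL group can have overlapped day 0. *Gpx1*, the main cytosolic glutathione peroxidase, was highest at day 3 and lowest at day 14, with 1140, 2340 and 777. *Gpx3*, the secreted peroxidase, was highest at day 14, with 77.8, 117 and 197. *Oplah*, the oxoprolinase that returns glutamate from glutathione breakdown, had 29.8, 20.7 and 2.28. *Gpx8*, a peroxidase of the endoplasmic reticulum, had 8.75, 0.288 and 4.27, and *Ggct*, which acts in glutathione breakdown, had 6.97, 4.82 and 3.51.

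*Hmox1* (chr8:75093621-75100589, plus strand), heme oxygenase 1, splits heme into biliverdin, iron and carbon monoxide. It had the highest level per kb of exon of the 10 genes in every group. Its mean normalized counts were 606 at day 0, 3140 at day 3 and 840 at day 14. The highest library, at 4290, was of day 3, and the other day 3 libraries averaged 2565, still above the limit of 1087 for any day 0 library. The log2 ratio was 2.37 ± 0.38 at day 3, a 5.18-fold difference, and 70 genes had a larger one. At day 14 it was 0.47 ± 0.36, and day 14 lay below day 3 by a log2 ratio of -1.90 ± 0.36. *Hmox1* is also known as a gene of macrophages that clear red cells. The sum of the Kupffer cell markers was 6592 at day 0, 13430 at day 3 and 587 at day 14. It was thus higher at day 3 than at day 0, but at day 14 it was lower, where the mean of *Hmox1* was not. The part of these cells was not tested.

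*Nqo1* (chr8:107388225-107403206, minus strand), the quinone reductase often used as a readout of NRF2, had its means in the order of *Slc7a11* and not in that of the other genes. Its means were low, 3.54 at day 0, 1.23 at day 3 and 5.83 at day 14, and the highest library, at 10.2, was of day 14. No day 3 library can have been above 3.19. The log2 ratio to day 0 was -1.53 ± 0.93 at day 3 and 0.72 ± 0.87 at day 14, both within 2 SE. With the highest day 0 library at its limit and left out, the day 3 ratio turned to 0.77. Day 14 stood above day 3 by 2.25 ± 0.87 on the log2 scale.

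*G6pdx* (chrX:74409483-74429194, minus strand), glucose-6-phosphate dehydrogenase, opens the pentose phosphate pathway and supplies NADPH to both reductases. Its means were 94.3, 189 and 105 normalized counts. The log2 ratio was 1.00 ± 0.56 at day 3, within 2 SE, and 0.16 ± 0.53 at day 14. Its libraries could overlap between all groups, the CV being 47.7%. Its exons overlap those of *Ikbkg* on the other strand, whose means were 14.2, 21.2 and 18.7. The gene is X-linked, and the study's groups differ in their numbers of male and female mice, whose part was not tested.

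**Figure D2:**
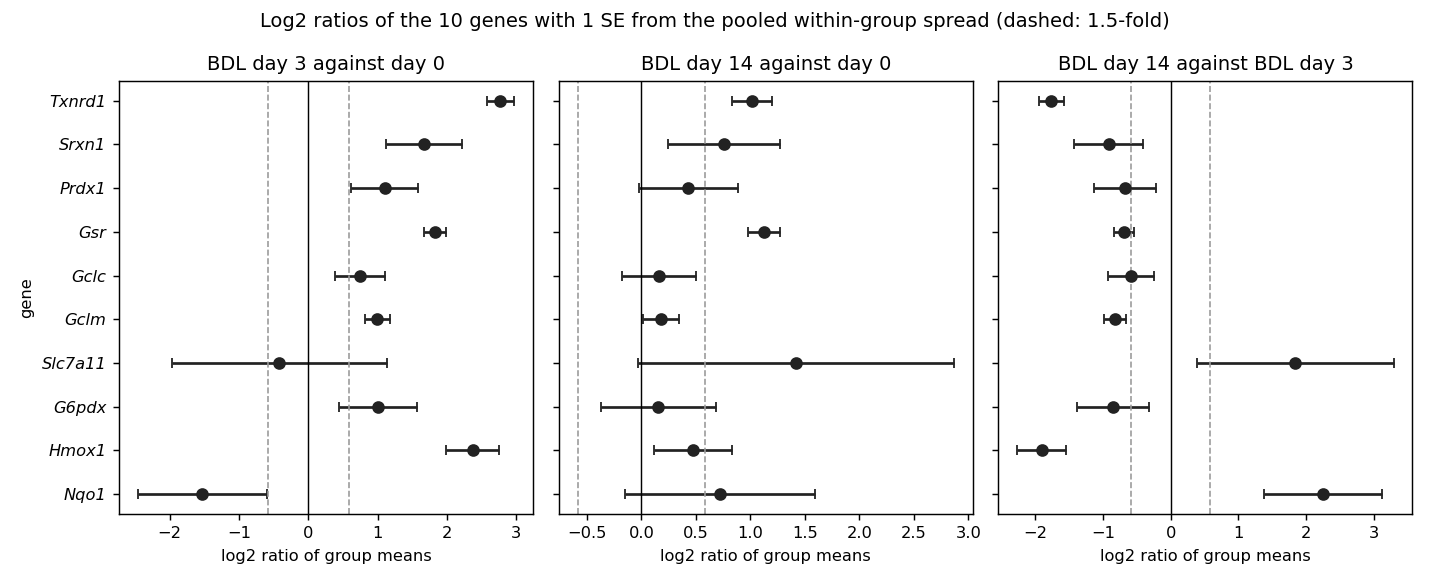
Log2 ratio of the authors' group means (horizontal axis) for each of the 10 genes in the 3 comparisons, with 1 SE from the pooled within-group spread (n = 3, 3 and 4 libraries). Dashed lines mark 1.5-fold either way. *Txnrd1* and *Gsr* lie right of the dashed line by more than 1 SE at both days, and the bars of *Slc7a11* and *Nqo1* are the widest.

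The ratio to day 0 exceeded 2 SE for 7 of the 10 genes at day 3, all but *G6pdx*, *Nqo1* and *Slc7a11*, beside 28.9% of the 12889 genes in either direction. At day 14 it did so for 2, *Txnrd1* and *Gsr*, beside 33% of all genes. Between day 14 and day 3 it did so for 5, *Txnrd1*, *Hmox1*, *Gclm*, *Gsr* and *Nqo1*, beside 24.9%. Libraries of day 3 and day 0 cannot have overlapped for *Txnrd1*, *Gsr*, *Gclm* and *Hmox1*, 4 of 10, beside 1.83% of all genes with day 3 on top and 3.03% with day 3 below. With the maximum alone and without the geometric mean, this held for *Txnrd1* only, beside 0.147%. Between day 14 and day 0 it held for 0 of the 10, beside 1.33% of all genes with day 14 on top and 3.24% with day 14 below. Between day 14 and day 3 it held for *Txnrd1*, which was lower at day 14, beside 1.69% lower and 0.691% higher.

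**Figure D3:**
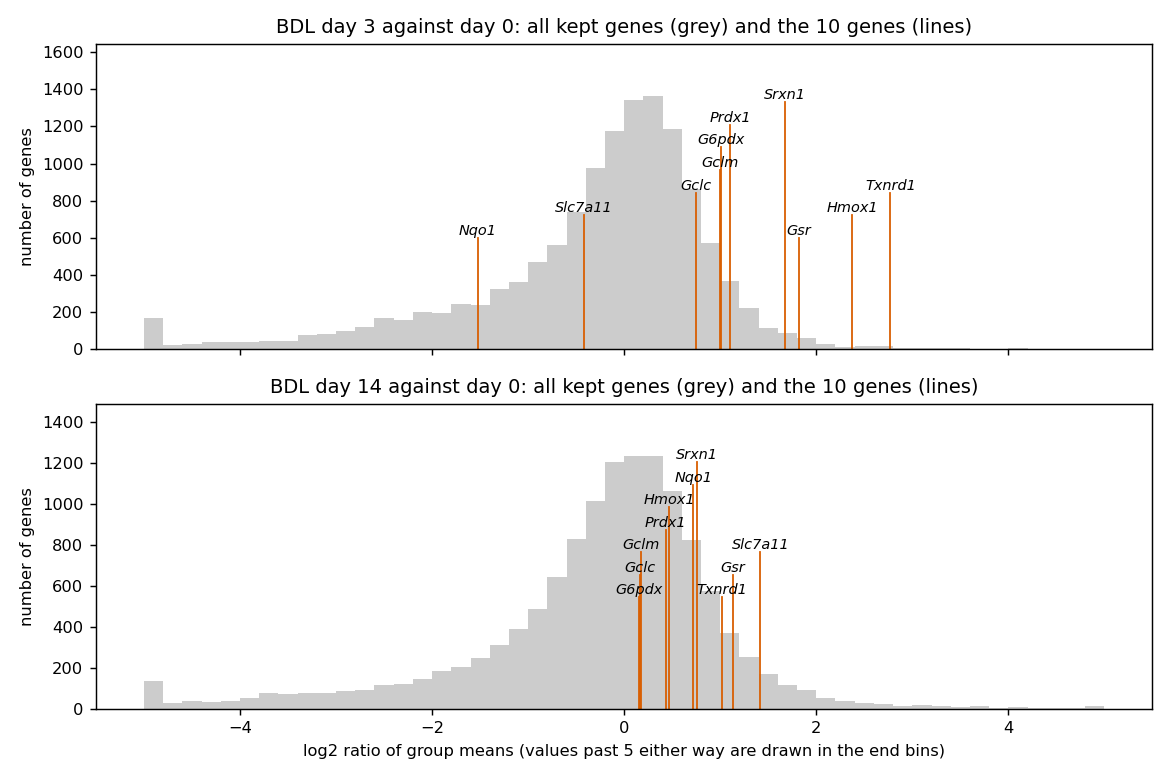
Number of genes (vertical axis) by log2 ratio of group means (horizontal axis, end bins holding values past 5) among the 12889 genes kept, in grey, with the 10 genes as labelled lines whose heights carry no value. At day 3 *Txnrd1* (2.77) and *Hmox1* (2.37) lie in the right tail, and at day 14 all 10 lines lie between 0.16 and 1.42.

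Per kb of exon, which allows levels of different genes to be set side by side, *Hmox1* and *Prdx1* were the highest of the 10 in every group, at 346 and 173 normalized counts per kb at day 0, 1793 and 371 at day 3, and 480 and 233 at day 14. *G6pdx* and *Gsr* followed, and their levels differed by less than 2 SE in each group. At day 0 *Gclm*, *Srxn1*, *Gclc* and *Txnrd1* formed a run from 5.39 to 4.40 per kb in which no neighbours differed by more than 2 SE. *Txnrd1* moved from the eighth place at day 0 to the fifth at day 3, at 30.1 per kb, where it stood above *Srxn1* by more than 2 SE, and at day 14, at 8.89, it did not. *Nqo1* (2.28, 0.792 and 3.75 per kb) and *Slc7a11* (0.137, 0.102 and 0.365) had the lowest means in every group, although *Nqo1* differed from the gene above it by less than 2 SE at day 0 (*Txnrd1*) and at day 14 (*Gclc*).

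Among the 10 regulators of NRF2, 3 were higher by the fold at day 3, 0 lower and 7 neither. *Nfe2l2*, which encodes NRF2, had means of 104, 106 and 94.9 normalized counts, and *Keap1*, its inhibitor, had 28.9, 39.4 and 27.5. *Sqstm1*, the autophagy receptor p62 that binds KEAP1 and is itself an NRF2 target, had 155, 382 and 237. Its log2 ratio at day 3 was 1.30 ± 0.21, and its day 3 libraries cannot have overlapped day 0. Of the small MAF partners, *Mafg* had 18.3, 30.0 and 23.2, *Mafk* 13.4, 24.3 and 13.9, and *Maff* 3.23, 2.84 and 2.61. *Bach1*, the repressor that competes with NRF2 for AREs, was highest at day 14 with 17.2, 20.6 and 35.4, a log2 ratio of 1.04 ± 0.25 at that day. The ligase subunit *Cul3* had 28.3, 36.4 and 43.9, and its RING partner *Rbx1* had 86.1, 89.5 and 66.8. The related factor *Nfe2l1* had 58.7, 66.9 and 56.4. At day 14 the 3 regulators past the fold were *Bach1*, *Cul3* and *Sqstm1*.

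Of 25 other known NRF2 targets, 24 passed the minimum, and 11 were higher, 2 lower and 11 neither at day 3, while at day 14 8 were higher, 9 lower and 7 neither. Their median log2 ratio was 0.55 and then 0.19. The NADPH and pentose phosphate genes *Pgd* (109, 345 and 223) and *Tkt* (160, 413 and 314) and the ferritin gene *Ftl1* (6730, 15000 and 9040), named after their values were seen, had the order of 8 of the 10 genes, lowest at day 0 and highest at day 3. *Ephx1*, the microsomal epoxide hydrolase, was highest at day 3 and lowest at day 14, with 101, 347 and 32.0, and its libraries cannot have overlapped between any of the groups. *Cd36*, a fatty acid and oxidized lipoprotein receptor of macrophages, had 70.8, 208 and 319. *Gpx2*, the epithelial glutathione peroxidase, and *Gstm3*, a mu-class transferase, stayed low, with 0.475, 1.26 and 2.58 and with 2.22, 7.67 and 2.12. *Gsta3*, an alpha-class glutathione transferase of hepatocytes, had 56.4, 24.6 and 10.6, and *Me1*, the cytosolic malic enzyme, had 16.2, 4.69 and 5.43.

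**Figure D4:**
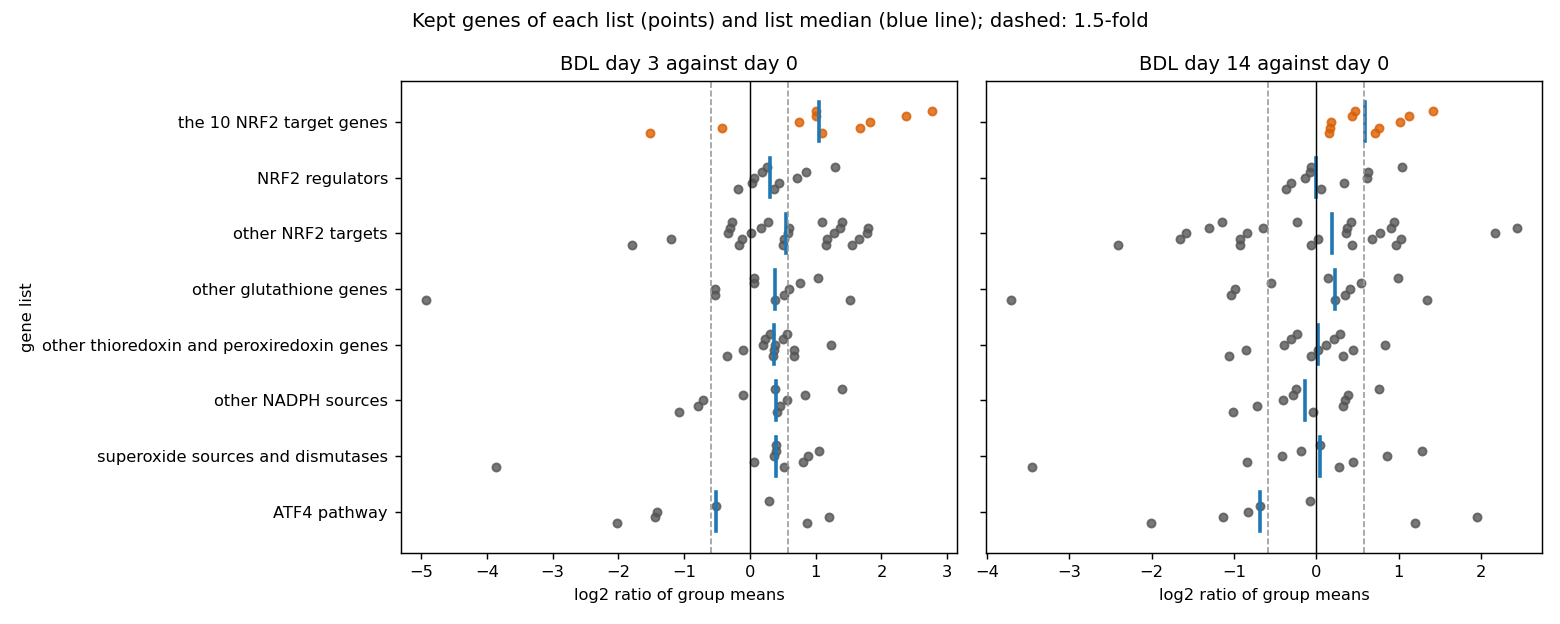
Log2 ratio of group means (horizontal axis) of each gene of 8 lists (rows) that passed the minimum, at day 3 and day 14 against day 0. Points are genes, blue lines list medians, dashed lines 1.5-fold. The median of the 10 genes was 1.05 and 0.60, and those of the 7 other lists lay between -0.52 and 0.55 at day 3 and between -0.69 and 0.22 at day 14.

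The list called other NADPH sources holds 10 genes of NADPH supply and the pentose phosphate pathway, not all of which make NADPH. Of these, 2 were higher, 3 lower and 5 neither at day 3, and 1, 2 and 7 at day 14. *Me2*, the mitochondrial malic enzyme, had 30.7, 80.6 and 40.1, and *Idh1*, cytosolic isocitrate dehydrogenase, had 98.1, 175 and 166. The pentose phosphate enzymes *Rpe* (13.9, 6.57 and 11.4) and *Rpia* (14.4, 8.33 and 8.78) and the mitochondrial transhydrogenase *Nnt* (13.7, 8.36 and 6.77) had lower means after BDL. Of the superoxide sources and dismutases, 9 of 10 passed the minimum, with 3 higher, 1 lower and 5 neither at day 3, and 2, 2 and 5 at day 14. The phagocyte oxidase subunits *Cybb* (219, 405 and 532) and *Cyba* (450, 933 and 546) were among those higher at day 3. *Rac2*, the GTPase of the same oxidase, had 244, 256 and 136. *Sod3*, the extracellular dismutase, had 37.7, 2.59 and 3.43.

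*Slc7a11* is also a target of ATF4, the factor of the amino acid response. Of 7 genes of the ATF4 pathway, 2 were higher, 3 lower and 2 neither at day 3, and 2, 4 and 1 at day 14. The serine synthesis genes diverged, with 2.82, 6.51 and 10.9 for *Psat1* and 6.95, 2.62 and 1.73 for *Phgdh*. *Atf3*, a stress-induced factor, had 174, 42.8 and 97.6, and *Ddit3* (CHOP) had 16.5, 11.5 and 7.50. *Asns*, asparagine synthetase, had 1.32, 0.486 and 3.03 and *Trib3*, an inhibitor of ATF4, had 1.07, 1.95 and 0.664.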

How the data were processed

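GFP(+) cells of 3 groups were profiled by mRNA sequencing. The authors trimmed the reads at a minimum quality of 20, aligned them to mm10 with STAR (2.6.1d in the submitters' processing notes, another version in the paper), counted them on GENCODE M18 genes and normalized by the upper quartile method in Partek Flow. The deposited signal values are group means of these normalized counts, with their total, maximum, geometric mean and arithmetic mean over 10 libraries. Columns of the authors' own comparisons (p-values, FDR, ratios, fold changes and limits) were not used. The table had 0 columns per library, so depth and counting precision are unknown.

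Of 16969 distinct symbols, 12889 with summed values of at least 10 were kept. With group sizes of 3, 3 and 4, the weighted group means came within 0.469% of the deposited arithmetic mean for 99% of genes. The labels give no litter or culture behind a library. The planned description of group means was kept, and the pooled CV was added after the data were seen. It is the square root of 2 times the summed log difference of group means and geometric mean over 7 degrees of freedom. The limits of single libraries use the same quantities. The pooled CV was tested on simulated data with the same CV in all 3 groups, set below those of *Nqo1* and *Slc7a11*. That test thus does not cover unequal spreads or these 2 genes. Ratios are given with no test. Coordinates are those of the table on GRCm38, 1-based, and matched GENCODE M21 for 16934 symbols and all 10 genes.

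The members and lists were chosen with earlier results of these data known. Named were the members, the NRF2 regulators and, of each other list, the 2 highest and 2 lowest log2 ratios at BDL day 3 and at BDL day 14 against day 0, except for an item that is not reported here. The marker lists of macrophages, Kupffer cells, hepatocytes, cholangiocytes, mesenchymal, endothelial, T and NK, B, neutrophil and erythroid cells are given as sums of normalized counts. Those not given in the results summed, at day 0, BDL day 3 and BDL day 14, to 634, 244 and 723 (endothelial), 44.2, 10.6 and 3.31 (T and NK cell), 160, 46.9 and 20.9 (B cell) and 436, 190 and 119 (neutrophil). Alternatives were other minimums, pseudocounts of 1 and 0.1, median-ratio scaling, quantile normalization, a fold above 2, a rounding change of 1%, limits without the highest library, the stricter motif and the 10 genes without *Nqo1* and *Slc7a11*. Python 3.11.15 with numpy 2.4.6, pandas 2.3.3 and matplotlib 3.10.9 was used.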

Additional observations from a re-analysis of the deposited data

How the results depend on the processing

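No paired analysis was possible because the deposited columns hold group means and no replicate, and for the same reason no library could be left out in turn. In its place the highest library of the higher group was set as high as the table allows and left out. At BDL day 14 against day 0, the median log2 ratio of the 10 genes then turned from 0.60 to -0.20 with the maximum alone and to -0.030 with the geometric mean as well, *Srxn1* went to -0.22 and -0.020, *Gclm* to -0.39 and -0.040, *Gclc* to -0.18 in both, *Prdx1* to -0.11 in both, *G6pdx* to -0.43 in both, *Hmox1* to -0.042 with the geometric mean, and *Txnrd1* to -4.55 with the maximum alone. With the maximum alone 2 genes were past 1.5-fold higher and 2 lower, in place of 5 and 0. The 2 lower genes were *Txnrd1* and *Hmox1*, whose day 14 libraries the geometric mean keeps to at most 92.2 and 1594. At BDL day 3 *Nqo1* went to 2.55 and 0.77, *Slc7a11* to 4.76 with the geometric mean, and the median went from 1.05 to 1.58 with the maximum alone, because *Nqo1* and *Slc7a11*, whose higher group is day 0, then stand above it. The number of genes past 1.5-fold at BDL day 14 against day 0 was 3 in place of 5 with a mean of at least 10, with a fold above 2, with the limit by the geometric mean, and without *Nqo1* and *Slc7a11*. Above 2-fold it was 4 in place of 9 between BDL day 14 and BDL day 3, and the other lists together had 25, 20 and 14 genes in place of 38, 41 and 43. Limits with the geometric mean, chosen after the data were seen as were the settings without *Nqo1* and *Slc7a11*, left 4 genes without overlap between BDL day 3 and day 0 in place of 1, and 1 in place of 0 between BDL day 14 and BDL day 3. The stricter motif was in 2 windows in place of 5. Quantile normalization moved the median of all genes by 0.13 and 0.14 (log2) in the comparisons with day 0, and under it *Slc7a11* at BDL day 3 stood at 0.64 and *Nqo1* at -0.55. Among the values of single genes, 231 kept their direction and their side of the fold, 15 kept the direction and were no longer past the fold, and 16 changed sign. With the maximum alone, *Hmox1* at BDL day 14 and *Slc7a11* at BDL day 3 against day 0 are not counted here. The higher group's mean without its highest library can be 0 for them, so their direction was lost as well. Among the summary values, 56 stayed within 1.5 times the main count or moved by less than the spread between libraries. Of the others, 9 were weaker, 2 stronger, 1 moved further and 2 reversed. Counts were compared as totals of higher and lower genes. The 56 thus include the 2 higher and 2 lower genes at BDL day 14 against day 0, where the direction was lost. Depth is unknown, and *Nqo1* and *Slc7a11* are the genes whose low means limit them most.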
